A study of Homo sapiens with 58 samples.

Results

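The 10 loci described here encode the receptors FGFR1, FGFR2 and FGFR3, the ligands FGF2, FGF8 and FGF18, and the feedback regulators SPRY1, SPRY2, SPRY4 and DUSP6 of fibroblast growth factor (FGF) signalling. Their regulatory elements (REs, the accessible regions counted by ATAC-seq) were taken by position alone: an RE belonged to a locus when its midpoint lay inside the gene body or within 100000 bp of a GENCODE (release 44) start site of that gene on genome build hg38. This rule gave 220 REs of 151457 in the whole table, 84 at the receptors, 62 at the ligands and 74 at the feedback regulators. No RE belonged to more than 1 of the loci. REs are called below by their locus and a number that runs in the direction of transcription, and distances are given from the start of the gene record, negative upstream. Position does not assign an RE to a gene: the member gene had the nearest protein-coding start for 161 of the 220 REs, and 19 other genes were nearest for the rest.

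The cells were cranial neural crest cells (CNCCs) differentiated from H9 cells, a much used line of human embryonic stem cells. In the SOX9-tagged cells both alleles of SOX9, a transcription factor of neural crest and cartilage, carried FKBP12-F36V, mNeonGreen and V5 at the C terminus, so that the degrader dTAGV-1 removed the protein. The tagged cells came from 2 edited clones, S9CC13 (4 replicates of the titration) and S9CC47 (3 replicates), and each replicate was a differentiation of 1 clone. In the titration, the tagged cells received 0, 0.5, 1.6, 5, 16 or 500 nM dTAGV-1 for 48 h, with 7 replicates per concentration, and the labels give SOX9 levels of 100, 77.9, 51.7, 25.8, 8.14 and 0.95% of the undepleted cells. Unedited wild type (WT) cells received 0 or 500 nM for 48 h, with 2 replicates per group. A time course held tagged (clone S9CC13 by the titles) and WT cells given DMSO vehicle, 3 h of 500 nM dTAGV-1 or 24 h of it, with 2 replicates per group, which makes 58 samples in all. All cells grew in medium with bFGF (FGF2 protein), EGF, BMP2 and CHIR-99021, so FGF ligand was supplied in every group.

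FGFs are secreted proteins that bind receptor tyrosine kinases on the cell surface together with heparan sulfate. The activated receptors act through the adaptor FRS2, GRB2 and SOS on the RAS and MAP kinase cascade, which switches on target genes through ETS factors. Sprouty proteins (SPRY1, SPRY2, SPRY4) and the ERK phosphatase DUSP6 are made in response to the signal and restrain it. In the developing face, FGF8 from the epithelium supports survival and patterning of neural crest cells, FGFR1 and FGFR2 are needed for normal skull and palate, and FGFR3 restrains growth of cartilage in bones formed from it.

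The REs that moved most at these loci lay at the Sprouty genes, and the central 200 bases are shown of some of the REs called lower within 3 h of SOX9 depletion, chosen after their values were seen to set REs with and without a SOX core side by side. The other REs lower at 3 h, SPRY4-31 among them, are given by their values alone. Capitals mark a SOX core, ACAAAG or ACAATG on either strand (CTTTGT and CATTGT on the strand shown), the short sequence that SOX proteins recognise. The sequences were read from the hg38 plus strand. SPRY1-4 (chr4:123305854-123306053 of an RE at chr4:123305704-123306204, in an intron of SPATA5), SPRY1-14 (chr4:123418524-123418723), SPRY2-3 (chr13:80361982-80362181) and SPRY4-15 (chr5:142353074-142353273, in an intron of SPRY4-AS1) held such cores. SPRY1-15 (chr4:123444092-123444291) and FGFR3-18 (chr4:1778065-1778264), shown for contrast, held none in their central 500 bp.
SPRY1-4: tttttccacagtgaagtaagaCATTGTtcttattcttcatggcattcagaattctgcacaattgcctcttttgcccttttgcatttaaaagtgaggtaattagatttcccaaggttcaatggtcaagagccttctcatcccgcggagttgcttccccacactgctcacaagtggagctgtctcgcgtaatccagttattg
SPRY1-14: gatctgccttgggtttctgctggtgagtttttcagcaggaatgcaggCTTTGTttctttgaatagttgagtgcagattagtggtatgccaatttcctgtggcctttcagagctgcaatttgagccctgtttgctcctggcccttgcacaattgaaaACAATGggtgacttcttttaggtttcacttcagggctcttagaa
SPRY2-3: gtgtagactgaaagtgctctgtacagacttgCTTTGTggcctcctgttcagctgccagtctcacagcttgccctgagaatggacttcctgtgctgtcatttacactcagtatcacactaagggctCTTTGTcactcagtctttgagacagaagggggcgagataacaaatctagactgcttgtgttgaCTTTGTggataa
SPRY4-15: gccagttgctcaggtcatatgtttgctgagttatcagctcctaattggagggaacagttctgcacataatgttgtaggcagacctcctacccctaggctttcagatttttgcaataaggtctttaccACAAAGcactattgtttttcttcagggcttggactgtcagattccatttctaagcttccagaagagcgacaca
SPRY1-15: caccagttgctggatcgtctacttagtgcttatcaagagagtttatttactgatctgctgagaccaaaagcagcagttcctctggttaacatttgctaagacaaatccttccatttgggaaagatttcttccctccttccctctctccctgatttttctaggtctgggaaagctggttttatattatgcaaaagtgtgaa
FGFR3-18: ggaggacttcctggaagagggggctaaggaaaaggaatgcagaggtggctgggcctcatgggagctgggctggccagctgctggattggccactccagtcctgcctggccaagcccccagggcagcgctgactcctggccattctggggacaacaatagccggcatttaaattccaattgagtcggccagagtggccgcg
SPRY2-3 held 3 cores, SPRY1-14 held 2, and SPRY1-4 and SPRY4-15 held 1 each.

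The 220 REs were well covered. Their mean count over the 42 titration samples ran from 31.95 to 4370, with a median of 182, and no RE was left out by a filter. Library totals over all REs were 22.9 M to 81.0 M counts, with a median count per RE of 51 to 199. The cells matched their label at the marker promoters: without dTAGV-1 the neural crest genes TWIST1, SNAI2, NR2F1 and PRRX1 had 87.0, 85.7, 121 and 45.2 CPM per kb (CPM, counts scaled to the library total) at their most accessible promoter RE, TFAP2A, PAX3 and MSX1 had 35.8, 32.6 and 31.2, the pluripotency genes POU5F1 and DPPA4 had 2.56 and 7.85, and no RE lay at the promoters of NANOG and ZFP42. The neural tube genes PAX6, OLIG2 and SOX1 had 18.3, 9.57 and 4.33. At 500 nM, 1 promoter RE each of MSX1, PAX3 and OLIG2 was called higher and no promoter RE of the other listed genes was called. The part of these in the changes below was not tested.

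The promoters of the 10 genes were open and mostly kept their accessibility at 48 h of 500 nM dTAGV-1, much like promoters of the whole table. The table holds 32 REs within 1000 bp of a start site of a member gene, of which 4 were called lower and 1 higher at 500 nM by the edgeR quasi-likelihood test at an adjusted p under 0.05. Over all REs at promoters of any gene, 15.2% were called in either direction, against 27.1% of REs elsewhere. At 500 nM in the titration, the most counted promoter RE was called at SPRY1 alone. In the time course (2 replicates per group), 4 of the 32 promoter REs were called lower and 4 higher at 24 h. Of all REs, 9.93% and 4.7% were.

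**Figure D1:**
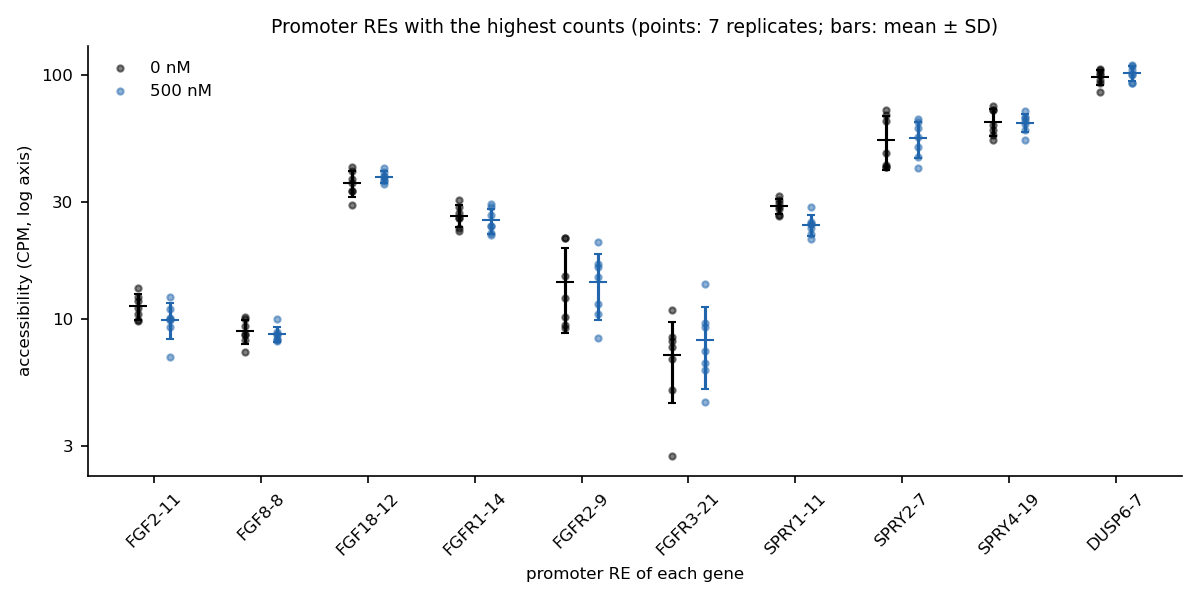
CPM (y axis, log scale) of each replicate (points) with the mean and SD (bars) at the most counted promoter RE of each of the 10 genes, for SOX9-tagged cells at 0 nM (black) and 500 nM (blue) dTAGV-1, n = 7 each. The 2 groups overlap at every promoter, SPRY1-11 included, where the mean goes from 28.9 to 24.2 CPM.

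DUSP6, which encodes a phosphatase that inactivates ERK, had the most counted promoter RE (DUSP6-7, chr12:89351852-89353261). Without dTAGV-1 its lowest, median and highest replicates had 85.5, 99.7 and 106 CPM, and at 500 nM they had 92.3, 101 and 110. The groups lay on top of each other, with a log2 fold change of 0.05 (SE 0.05). The promoter REs of SPRY4 (SPRY4-19, 64.4 ± 8.11 CPM without dTAGV-1 and 63.8 ± 5.65 at 500 nM, SD, n = 7), SPRY2 (SPRY2-7, 54.3 ± 13.6 and 54.9 ± 9.19), FGF18 (FGF18-12, 35.9 ± 4.39 and 38.2 ± 2.05), FGFR1 (FGFR1-14, 26.4 ± 2.75 and 25.3 ± 2.99), FGFR2 (FGFR2-9, 14.1 ± 5.39 and 14.1 ± 4.27), FGF2 (FGF2-11, 11.2 ± 1.34 and 9.91 ± 1.63), FGF8 (FGF8-8, 8.85 ± 0.999 and 8.65 ± 0.626) and FGFR3 (FGFR3-21, 7.101 ± 2.60 and 8.17 ± 3.03) were not called either. At SPRY1 the most counted promoter RE (SPRY1-11, chr4:123398789-123399707, in an intron of SPRY1 beside an internal start) had 26.5, 28.8 and 31.9 CPM as lowest, median and highest without dTAGV-1 and 21.2, 24.4 and 28.8 at 500 nM. It was lower in 6 of 7 replicates, with a log2 fold change of -0.26 (SE 0.07, edgeR adjusted p = 0.00641). The RE at the upstream SPRY1 start (SPRY1-8) had 17.1 ± 2.16 and 17.2 ± 0.240 CPM and was not called.

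Over all 220 REs the loci were divided. At 500 nM, 40 of the 220 REs were called lower, where 13.9% of all REs were, and 16 higher, where 10.2% were. The 56 called REs make 25.5% of the loci, close to the 24.1% of all REs that were called. The loci as a whole were called about as often as the table at large, and the median log2 fold change over the 220 was -0.03 beside 0.02 over all REs. The counts by role were unequal: 18 of 84 receptor REs were lower and 3 higher, 3 of 62 ligand REs were lower and 5 higher, and 19 of 74 feedback regulator REs were lower and 8 higher. These differences between roles were not tested. Accessibility is averaged over the cells of a culture, so fewer open cells and a less open element in every cell cannot be told apart. Without differentiation batch in the model 25 of the 56 REs were called, 21 lower and 4 higher. A window of 50 kb around the start sites kept 133 REs, of which 36 were called.

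**Figure D2:**
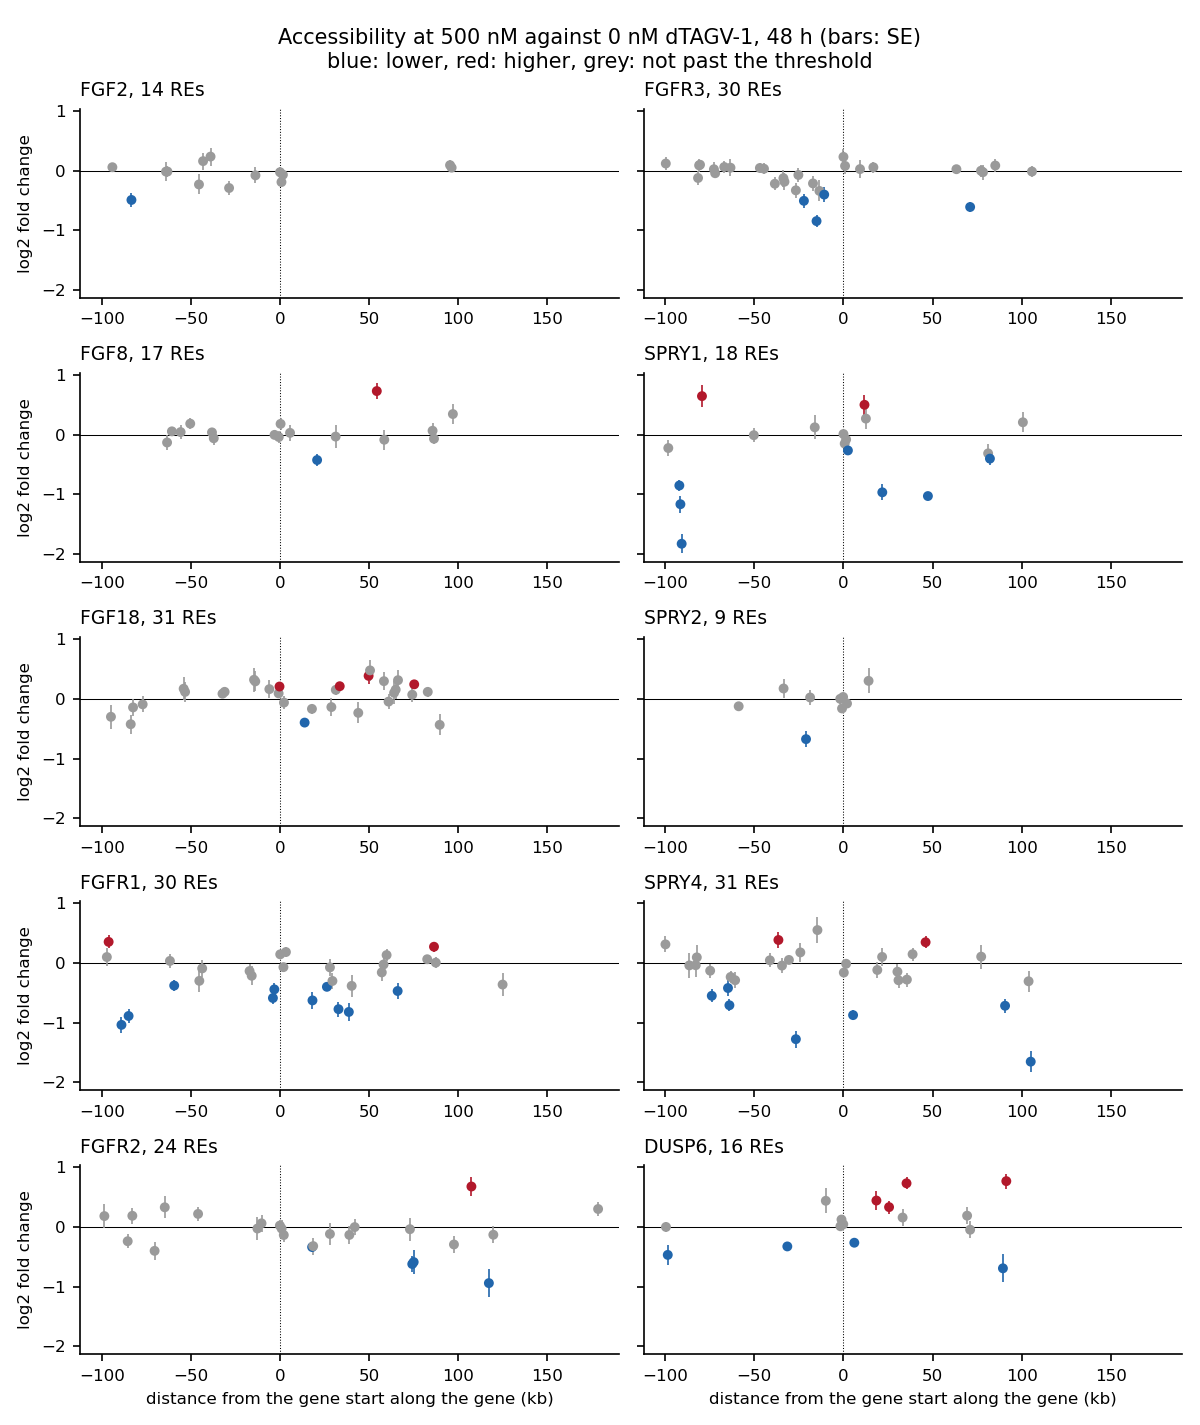
log2 fold change at 500 nM against 0 nM dTAGV-1 (y axis, bars SE) of each of the 220 REs by its distance from the gene start along the gene in kb (x axis), 1 panel per gene, blue for REs called lower, red for REs called higher and grey for the rest. The SPRY1 and SPRY4 panels hold the REs that fell furthest, SPRY1-4 lowest at -1.83, while FGF18 and DUSP6 each hold 4 REs that rose.

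Most changes were modest. Of the 56 called REs, 6 changed by a log2 value of 1 or more, all of them lower (SPRY1-4, SPRY4-31, SPRY4-15, SPRY1-3, FGFR1-3 and SPRY1-15), whereas 6794 of the 36546 called REs of the whole table, 18.6%, did. The 40 lower REs had a median log2 fold change of -0.61 (range -1.83 to -0.26), beside -0.66 over all lower REs, and the 16 higher REs one of 0.39 (0.21 to 0.77), beside 0.55. A decrease in all 7 replicates was seen for 32 of the 40 and an increase in all 7 for 10 of the 16. The values of 0 and 500 nM samples did not overlap for 5 REs: FGFR1-3, FGFR1-4, SPRY1-15, SPRY4-31 and DUSP6-12. Neither overlap nor direction by replicate was counted over all REs, so these counts do not set the loci apart from the rest.

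FGFR1, a receptor that mesenchymal cells express, had 10 REs lower and 2 higher of 30. The largest decreases came from a pair of elements far upstream, FGFR1-3 (chr8:38557373-38558199, -89.0 kb) and FGFR1-4 (chr8:38553251-38554419, -85.0 kb), both in introns or exons of the noncoding genes LINC03042 and ENSG00000253361. FGFR1-4 had 9.12, 12.5 and 26.1 CPM as lowest, median and highest without dTAGV-1 and 5.72, 7.59 and 8.48 at 500 nM. Every depleted replicate thus lay under every undepleted one, and the log2 fold change was -0.89 (SE 0.11, edgeR adjusted p = 9.66e-07). The value of 26.1 belonged to S9CC47_R8, and without that replicate the change was -0.75. FGFR1-3 had 2.64, 3.49 and 6.31 CPM without dTAGV-1 and 1.59, 1.83 and 2.10 at 500 nM, again without overlap, which gave -1.04 on the log2 scale (SE 0.14, edgeR adjusted p = 2.64e-06). Nearer the gene, FGFR1-11 (chr8:38472538-38473038, -4.0 kb) went from 10.9 ± 5.52 to 7.09 ± 3.24 CPM, with overlapping groups but a decrease in 7 of 7 replicates (log2 fold change -0.59, SE 0.11, edgeR adjusted p = 0.000169). In the other direction, FGFR1-2 (chr8:38564701-38565437, -96.2 kb) rose in 7 of 7 replicates by a log2 value of 0.35 (SE 0.11), and FGFR1-28, at the start of a noncoding gene nearest NSD3, rose by 0.27 (SE 0.09) in 6 of 7.

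FGFR2, the receptor of many craniofacial syndromes, had 4 REs lower and 1 higher of 24, all inside the gene. FGFR2-22 (chr10:121481045-121481545), at an internal start in the 3′ part, had 0.513, 1.07 and 1.51 CPM as lowest, median and highest without dTAGV-1 and 0.217, 0.569 and 0.740 at 500 nM. It fell in 6 of 7 replicates (log2 fold change -0.94, SE 0.24, edgeR adjusted p = 0.00492), at a mean count of 33.3. FGFR2-18 (chr10:121523759-121524739, +74.2 kb, intronic) went from 5.10 ± 1.52 to 3.34 ± 0.764 CPM (log2 fold change -0.62, SE 0.13, edgeR adjusted p = 0.000824). The increase was at FGFR2-21 (chr10:121490797-121491297, intronic), from 1.25 ± 0.349 to 1.97 ± 0.387 CPM (log2 fold change 0.68, SE 0.16, edgeR adjusted p = 0.00254).

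FGFR3, a brake on cartilage growth, had 4 REs lower and none higher of 30, the latter against a background of 10.2%. FGFR3-18 (chr4:1777915-1778415, -15.1 kb, intergenic) had 12.4, 16.1 and 21.1 CPM as lowest, median and highest without dTAGV-1 and 7.05, 8.66 and 13.3 at 500 nM. The groups overlapped by the S9CC47_R8 sample alone, and the log2 fold change was -0.84 (SE 0.10, adjusted p = 2.88e-07, edgeR). FGFR3-26 (chr4:1864183-1864683, +71.1 kb, nearest NSD2) went from 26.0 ± 4.44 to 17.1 ± 2.68 CPM, or -0.61 on the log2 scale (SE 0.08, edgeR adjusted p = 1.16e-06).

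The ligand loci moved little and in both directions. FGF2, which encodes the ligand that is also added to the medium, had 1 called RE of 14, and that one (FGF2-2, chr4:122743065-122743565) lay in a coding exon of the neighbouring gene BBS12. It went from 8.33 ± 2.58 to 6.16 ± 2.76 CPM and fell in 7 of 7 replicates (log2 fold change -0.49, SE 0.11, edgeR adjusted p = 0.00199). The most accessible RE of all 220 per kb lay in this locus, at the BBS12 promoter (FGF2-1, 92.1 ± 4.64 and 96.3 ± 8.08 CPM), and was not called.

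FGF8, the epithelial ligand, had 1 RE lower and 1 higher of 17. FGF8-13 (chr10:101725823-101726323, +54.3 kb, in an intron of LINC03046, nearest FBXW4) had 1.098, 1.66 and 2.47 CPM as lowest, median and highest without dTAGV-1 and 1.72, 2.66 and 3.73 at 500 nM, and rose in 7 of 7 replicates (log2 fold change 0.73, SE 0.14, edgeR adjusted p = 0.000232). FGF8-11 (chr10:101759298-101759798, +20.8 kb) went from 7.38 ± 1.52 to 5.52 ± 1.20 CPM (log2 fold change -0.42, SE 0.10, edgeR adjusted p = 0.00268).

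FGF18, a ligand of skeletal tissue that signals in cartilage through FGFR3, had 1 RE lower and 4 higher of 31. FGF18-15 (chr5:171433057-171433819, in an intron) fell from 41.7 ± 9.28 to 31.7 ± 6.76 CPM (log2 fold change -0.40, SE 0.07, edgeR adjusted p = 0.000143). FGF18-29 (chr5:171494651-171495151, +75.3 kb) rose from 31.4 ± 3.81 to 37.2 ± 3.19 CPM, in 7 of 7 replicates (log2 fold change 0.24, SE 0.06, edgeR adjusted p = 0.00590). Of the increases here, that at FGF18-29 alone stayed called whichever replicate was left out. FGF18-19, in an intron, rose by 0.21 (SE 0.08, edgeR adjusted p = 0.0432) in 5 of 7, a call lost by DESeq2 (adjusted p = 0.0663) and in edgeR without S9CC13_R13 (adjusted p = 0.107) or S9CC47_R8 (adjusted p = 0.185).

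SPRY1, a Sprouty inhibitor of receptor signalling, had 7 REs lower and 2 higher of 18 and the RE that fell furthest. SPRY1-4 had 1.34, 3.91 and 9.31 CPM as lowest, median and highest without dTAGV-1 and 0.506, 1.12 and 2.08 at 500 nM. It fell in 7 of 7 replicates, although the undepleted level itself was unequal: 7.61 to 9.31 CPM in S9CC13_R6, S9CC47_R6 and S9CC47_R8, 3.91 in S9CC47_R5, and 1.34 to 2.52 in S9CC13_R10, S9CC13_R13 and S9CC13_R14, so that the groups overlapped. The log2 fold change was -1.83 (SE 0.16, edgeR adjusted p = 2.56e-09), and -1.69 without S9CC47_R8. Next to it, SPRY1-3 (chr4:123305086-123305586) went from 4.30 ± 1.90 to 1.89 ± 0.599 CPM (log2 fold change -1.16, SE 0.14, edgeR adjusted p = 6.40e-07).

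Downstream of SPRY1, SPRY1-15 (chr4:123443721-123444663, +47.4 kb) gave the lowest adjusted p of the 220. Its lowest, median and highest replicates had 19.1, 22.4 and 26.5 CPM without dTAGV-1 and 9.42, 11.5 and 12.7 at 500 nM, far apart in every replicate (log2 fold change -1.03, SE 0.07, edgeR adjusted p = 2.33e-11). SPRY1-14 (chr4:123418374-123418874, +21.8 kb) went from 5.58 ± 2.16 to 2.77 ± 0.450 CPM (log2 fold change -0.96, SE 0.13, edgeR adjusted p = 5.07e-06). The 2 REs that rose, SPRY1-5 and SPRY1-12, were at low levels of 0.720 ± 0.229 and 1.12 ± 0.511 CPM without dTAGV-1, and 1.16 ± 0.486 and 1.54 ± 0.564 at 500 nM.

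SPRY4 also had 7 REs lower and 2 higher, of 31. SPRY4-15 (chr5:142352924-142353424, -26.7 kb) had 2.58, 5.80 and 8.63 CPM as lowest, median and highest without dTAGV-1 and 1.70, 2.15 and 3.84 at 500 nM. It fell in 7 of 7 replicates, with overlap between groups (log2 fold change -1.28, SE 0.14, edgeR adjusted p = 1.33e-07). SPRY4-31 (chr5:142221098-142221598, +105.1 kb, nearest NDFIP1) had 1.29, 1.81 and 2.63 CPM without dTAGV-1 and 0.377, 0.654 and 0.721 at 500 nM, without overlap (log2 fold change -1.65, SE 0.18, edgeR adjusted p = 9.76e-08). SPRY4-20 (chr5:142320760-142321260, +5.4 kb, in the SPRY4 intron) was the most accessible of the decreasing REs there, at 17.1 ± 5.70 and 9.36 ± 3.31 CPM (log2 fold change -0.87, SE 0.08, edgeR adjusted p = 9.04e-09). SPRY4-8 (chr5:142390171-142390671, -64.0 kb) went from 8.47 ± 2.32 to 5.12 ± 1.13 CPM.

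SPRY2 had 1 called RE of 9. SPRY2-3 (chr13:80361832-80362332, -21.0 kb) had 2.07, 2.81 and 4.20 CPM as lowest, median and highest without dTAGV-1 and 1.32, 1.74 and 3.04 at 500 nM, and fell in 7 of 7 replicates (log2 fold change -0.67, SE 0.13, edgeR adjusted p = 0.000454).

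DUSP6 had as many REs called higher as lower, 4 and 4 of 16, unlike the Sprouty genes, a difference that was not tested. Only DUSP6-3, DUSP6-8, DUSP6-12 and DUSP6-16 of these stayed called in every fit that left out 1 replicate. The locus held the largest increase at 500 nM of the 10 loci. DUSP6-12 (chr12:89316821-89317321, +35.4 kb) had 3.77, 4.40 and 4.92 CPM as lowest, median and highest without dTAGV-1 and 5.95, 7.24 and 8.09 at 500 nM, without overlap (log2 fold change 0.73, SE 0.10, edgeR adjusted p = 3.32e-06). DUSP6-16 (chr12:89260724-89261570, +91.4 kb, in an intron of LINC02458) went from 2.72 ± 0.758 to 4.69 ± 1.42 CPM (log2 fold change 0.77, SE 0.13, edgeR adjusted p = 4.09e-05). Close beside it, DUSP6-15 (chr12:89262738-89263238) went the other way, from 1.03 ± 0.473 to 0.627 ± 0.276 CPM, in 6 of 7 replicates. Its call (adjusted p = 0.0345, edgeR) was lost in 5 of the fits that left out 1 replicate. DUSP6-8 (chr12:89345706-89347124, +6.1 kb) fell from 37.0 ± 4.32 to 31.0 ± 3.61 CPM, and DUSP6-3 (chr12:89383148-89384764, -31.5 kb) from 28.5 ± 8.59 to 22.9 ± 7.40 CPM, both in 7 of 7 replicates.

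The number of called REs fell with the concentration of dTAGV-1. At 16 nM, 27 REs were called lower (9.12% of all REs) and 14 higher (7.12%). At 5 nM, 12 were lower (4.24% of all REs) and none higher (1.08%). At 1.6 nM and 0.5 nM no member RE was called by edgeR, where 0.0383% and 0% of all REs were. At an unadjusted p under 0.05, edgeR gave 10 and 8 of the 220 at those concentrations and DESeq2 7 and 8. The count at 5 nM depended on single replicates: it was 6 without S9CC13_R10 or S9CC47_R8, 7 without S9CC13_R13 or S9CC47_R5, and 26 without S9CC47_R6 (22 lower and 4 higher). With the replicate as a block in place of the batch, 62 REs were called at 16 nM, 20 at 5 nM (17 lower and 3 higher) and 1 at 1.6 nM.

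**Figure D3:**
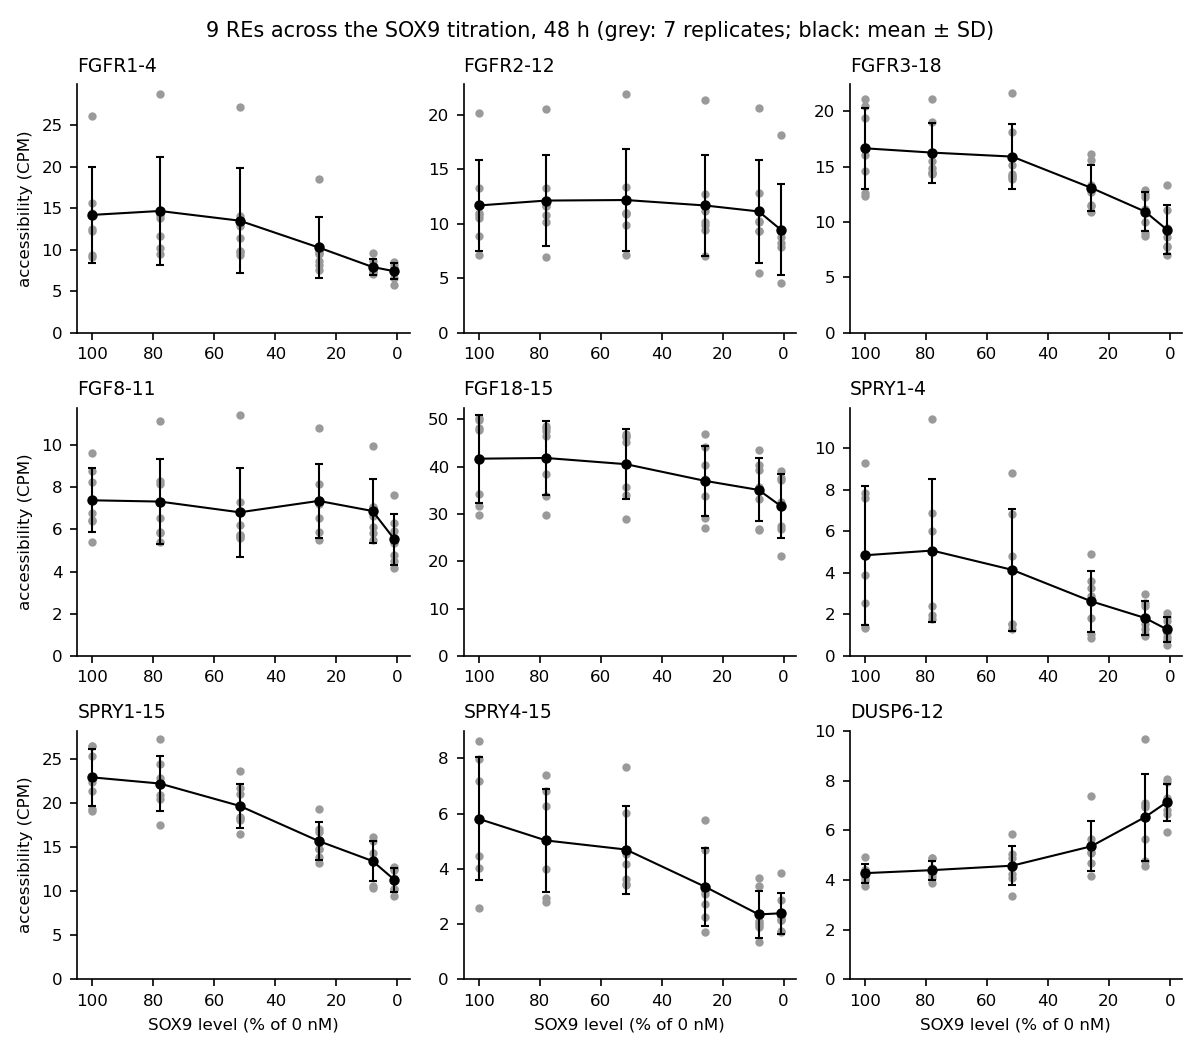
CPM of each replicate (grey) with the mean and SD (black, n = 7 per concentration) at 9 REs against the labelled SOX9 level, from 100% on the left to 0.95% on the right (linear axes, CPM from 0). At SPRY1-15 the mean falls from 22.9 CPM at full SOX9 to 19.7, 15.7, 13.4 and 11.3 CPM at 51.7, 25.8, 8.14 and 0.95%. FGFR2-12 stays near its full level until the last steps, and DUSP6-12 rises from 4.27 to 7.14 CPM. FGF8-11 moves unevenly, with 32.5 ± 52.6% of its 500 nM log2 change at 51.7% SOX9 and 2.86 ± 42.5% at 25.8%.

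As the median over the 40 of the share of the 500 nM log2 change, they had reached 1.70 ± 12.6% (SD over 7 replicates) at 77.9% SOX9, 11.5 ± 11.7% at 51.7%, 41.9 ± 20.7% at 25.8% and 63.7 ± 15.1% at 8.14%. A straight line in SOX9 level would give 22.3, 48.8, 74.9 and 92.7%. The 16 higher REs had reached 7.92 ± 22.8, 11.5 ± 15.3, 32.7 ± 16.6 and 68.4 ± 24.1%. The REs were chosen by the 500 nM samples that set the end of this scale, so these shares are a description.

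A 2-parameter Hill curve per RE gave the ED50, the SOX9 level midway through the change. The median ED50 of the 56 called REs was 19.8% SOX9, 20.6 for the lower and 11.7 for the higher REs, and the curve had an Akaike information criterion lower than a straight line by more than 2 for 49 of them. Of the lower REs 32 had an ED50 under 30, 6 from 30 to 40, and 2 above. Those 2 were SPRY2-3, at 50.5 (47.4 to 58.1 over fits without each replicate), and FGFR2-22, at 46.4 (39.9 to 54.3), and in both the straight line fitted about as well. The study, by its own fits, also placed most SOX9-dependent REs of the whole table under 30. It found most of them better fitted by a Hill curve than by a line. No curve was fitted here outside the loci, so these counts do not set them apart. SPRY4-15 stood at 38.7 (36.8 to 40.6), SPRY4-31 at 37.2 (35.2 to 41.5), SPRY1-15 at 29.9 (26.0 to 34.6), SPRY1-4 at 29.8 (28.1 to 31.4) and FGFR1-4 at 27.9 (26.7 to 31.8), ranges that overlap between neighbours except between SPRY4-15 or SPRY4-31 and the 3 REs below them. At the other end, FGFR1-11 (6.14, 4.56 to 9.07), FGF2-2 (6.48, 5.20 to 7.60), FGF8-11 (4.94, 4.83 to 7.81) and DUSP6-3 (4.01, 3.69 to 6.20) kept most of their accessibility down to the lowest SOX9 levels measured. FGFR2-12, in an FGFR2 intron, had an ED50 of 7.13 (6.06 to 7.59). FGFR1-28 was fitted at 1.88, between the lowest measured levels, and is not resolved by these concentrations. The ranges do not cover the choice of scale: on a log2 scale the median ED50 was 15.4. There SPRY4-15 stood at 33.35, SPRY4-31 at 29.4, SPRY1-15 at 23.1, SPRY1-4 at 17.9 and FGFR1-4 at 25.8, each below its range above. SPRY2-3 (50.7) and FGFR2-22 (41.5) stayed within theirs.

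**Figure D4:**
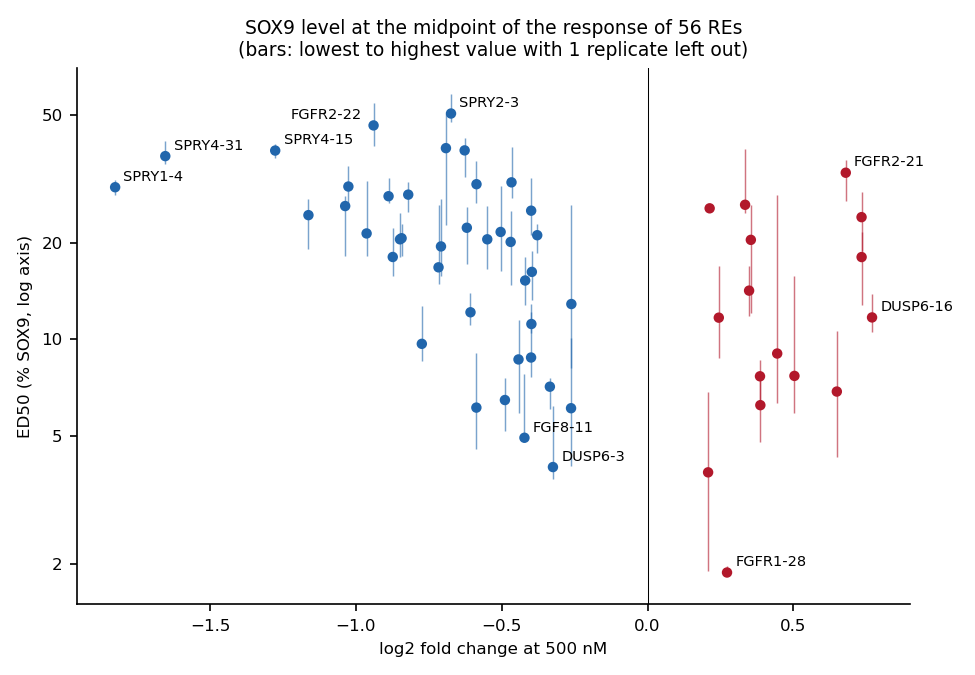
ED50 (y axis, % SOX9, log scale) against the log2 fold change at 500 nM (x axis) of the 56 called REs, blue for lower and red for higher, with bars from the lowest to the highest value over fits that leave out 1 replicate. SPRY2-3 and FGFR2-22 lie highest, at 50.5 and 46.4, and FGFR1-28 lowest, at 1.88.

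The time course asked which changes came soon after SOX9 was removed. At 3 h, 13 REs were called lower (7.43% of all REs) and 6 higher (0.912%), and at 24 h 27 were lower (9.93%) and 13 higher (4.7%). Of the 13 lower at 3 h, 9 lay at Sprouty genes or DUSP6: 4 at SPRY1, 3 at SPRY4, 1 at SPRY2 and 1 at DUSP6. The remaining lower REs were 2 at FGFR1, 1 at FGFR2 and 1 at FGFR3. Of the 40 REs lower at 48 h in the titration, 12 were called lower at 3 h and 25 at 24 h. The matching shares among all REs lower at 48 h are not given here, so these 2 counts do not set the loci apart. Each group here holds 2 replicates, and DESeq2 called 12 REs at 3 h and 25 at 24 h where edgeR called 19 and 40. Fewer REs were called at both times when S9CC13_R4 or S9CC13_R5 was left out. Those fits held tagged and WT samples together, unlike the main fit, and took their spread from the WT samples. The loss of a replicate and the change of model cannot be told apart there.

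**Figure D5:**
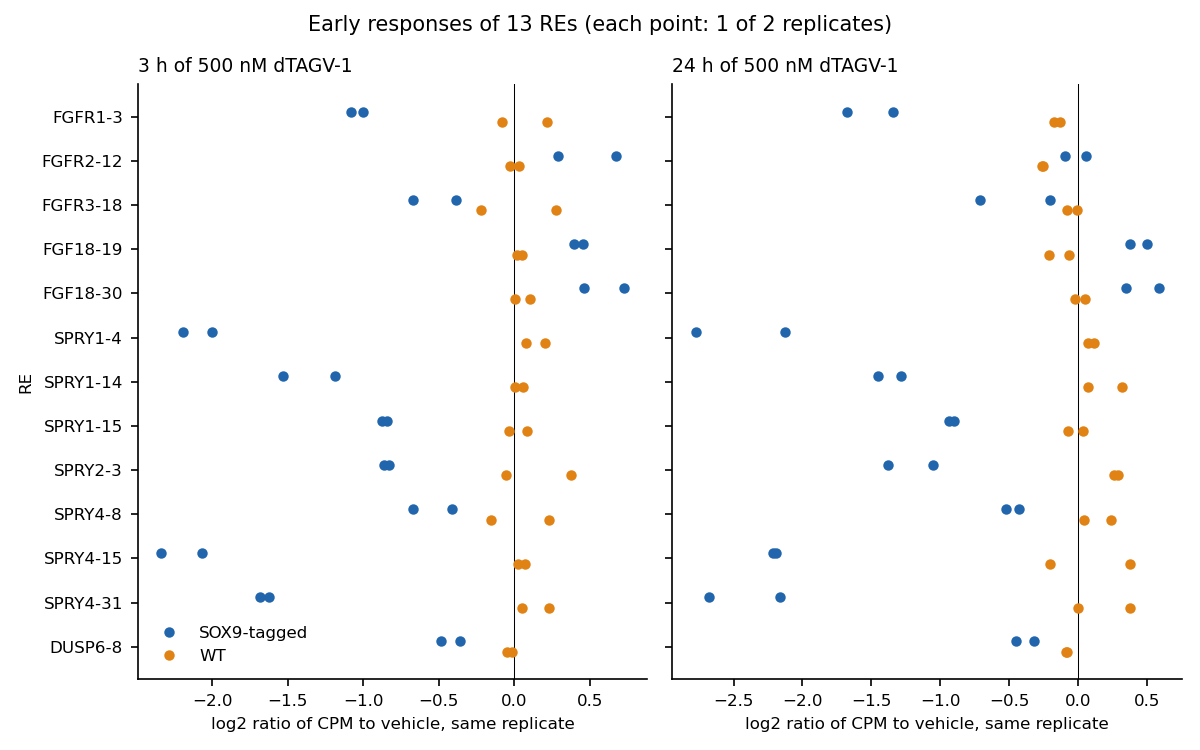
log2 ratio of CPM after 3 h (left) and 24 h (right) of 500 nM dTAGV-1 to vehicle of the same replicate (x axis) at 13 REs, for SOX9-tagged (blue) and WT (orange) cells, each point 1 of 2 replicates. At 3 h both tagged points of SPRY4-15, SPRY1-4 and SPRY4-31 lie far left of the WT points, which sit near 0, and those of FGF18-19 and FGF18-30 lie to their right.

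SPRY4-15 and SPRY1-4 gave the largest early decreases. At SPRY4-15 the 2 tagged replicates had 6.74 and 6.47 CPM with vehicle, 1.33 and 1.54 at 3 h and 1.46 and 1.42 at 24 h, and WT cells had 6.68 and 7.65, 7.00 and 7.76, and 8.67 and 6.65. All treated tagged samples lay below all the others, and the log2 fold change at 3 h was -2.25 (SE 0.18, edgeR adjusted p = 6.10e-08). SPRY1-4 had 13.6 and 6.86 CPM with vehicle and 2.98 and 1.71 at 3 h in tagged cells (log2 fold change -2.17, SE 0.17, edgeR adjusted p = 4.53e-08), and 14.5 and 6.32 with vehicle and 15.2 and 7.27 at 3 h in WT cells. SPRY4-31 went from 5.56 and 3.31 CPM to 1.73 and 1.07 at 3 h and 0.868 and 0.737 at 24 h. SPRY1-14 went from 7.82 and 11.2 CPM to 3.44 and 3.88 at 3 h and 3.21 and 4.11 at 24 h, and SPRY1-15 from 33.3 and 30.7 to 18.1 and 17.1 and then 17.4 and 16.4, with 24 h values close to those at 3 h at both. SPRY2-3 went from 2.58 and 5.16 CPM to 1.42 and 2.90 at 3 h (log2 fold change -0.91, SE 0.19, edgeR adjusted p = 0.00267). DUSP6-8, the RE of DUSP6 that fell at 3 h, went from 49.3 and 37.4 CPM to 35.2 and 29.2 (log2 fold change -0.49, SE 0.07, edgeR adjusted p = 0.000115).

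Other decreases came later. SPRY4-20 had 30.1 and 11.1 CPM with vehicle, 25.5 and 8.44 at 3 h and 12.7 and 7.12 at 24 h, and was called at 24 h (log2 fold change -1.02, SE 0.13, edgeR adjusted p = 1.70e-05) and not at 3 h (-0.37, SE 0.13, edgeR adjusted p = 0.0951). SPRY1-3, beside SPRY1-4, changed by -0.29 (SE 0.22, edgeR adjusted p = 0.577) at 3 h and by -0.99 (SE 0.23) at 24 h. Whether the 3 h and 24 h values differ from each other was not tested. Of the REs lower in the titration, the median ED50 was 27.9 for those also called at 3 h in either direction and 18.1 for the others. The first group includes the FGFR2 RE described below that was called higher at 3 h. Its median is therefore not that of the early decreases alone, which was not taken.

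The 6 increases called at 3 h were at the receptors and FGF18. In other fits fewer were called: DESeq2 called 2 REs higher, and the edgeR fits of tagged and WT samples together without S9CC13_R4 or S9CC13_R5 called fewer too. FGF18-19 rose from 27.0 and 27.2 CPM to 35.5 and 37.2 at 3 h and stood at 38.2 and 35.4 at 24 h (log2 fold change at 3 h 0.36, SE 0.08, edgeR adjusted p = 0.00438). FGF18-30 (chr5:171502257-171502757, +82.9 kb) rose from 17.0 and 10.7 to 23.4 and 17.7 CPM at 3 h (log2 fold change 0.52, SE 0.10, edgeR adjusted p = 0.00121), yet in the titration it changed by 0.12 (SE 0.09, edgeR adjusted p = 0.358). FGFR2-12 changed direction: it went from 13.7 and 8.05 to 21.8 and 9.85 CPM at 3 h (log2 fold change 0.43, SE 0.12, edgeR adjusted p = 0.0334), and in the titration it was lower at 500 nM in 7 of 7 replicates (-0.33, SE 0.09, edgeR adjusted p = 0.00508). The increases at DUSP6 were absent from the calls of the time course at 3 h: DUSP6-12 had 4.12 and 5.04 CPM with vehicle, 2.89 and 5.55 at 3 h and 4.70 and 6.10 at 24 h.

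WT cells, which have no degradation tag, showed no called RE at the 10 loci by edgeR, either at 48 h (0.303% of all REs were called), at 3 h (0%) or at 24 h (0%). At an unadjusted p under 0.05, edgeR gave 10, 3 and 9 of the 220 and DESeq2 1, 2 and 2. The lowest adjusted p was 0.149, at SPRY1-4 after 48 h, where dTAGV-1 and control samples had 9.23 and 8.48 against 6.07 and 7.74 CPM, higher and not lower with the degrader. The effect of 500 nM was then compared between genotypes in 1 model. It was lower in tagged than in WT cells at 23 REs after 48 h (7.29% of all REs), at 9 after 3 h (5.13%) and at 11 after 24 h (6.28%), and higher at 3 REs after 48 h (3.56%), none after 3 h (0.072%) and 3 after 24 h (0.45%). All 23 were among the 40 lower in tagged cells. The difference was widest at SPRY1-4 (-2.23, SE 0.23, edgeR adjusted p = 2.49e-08), SPRY4-31 (-2.17, SE 0.27, edgeR adjusted p = 5.46e-07) and SPRY4-15 (-1.49, SE 0.23, edgeR adjusted p = 1.67e-05), and the 3 REs on the higher side were DUSP6-16, DUSP6-12 and FGFR1-2. The count at 48 h was 12 without WT_R8 and 13 without WT_RSh.

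Without dTAGV-1, no member RE differed between tagged and WT cells by edgeR (0.95% of all REs did), over 3 differentiations with 1 sample of each genotype. At an unadjusted p under 0.05 it gave 26 of the 220, and DESeq2 14, and the lowest edgeR adjusted p was 0.0512.

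SOX cores were about as common at these loci as elsewhere. In the central 500 bp, 100 of the 220 REs held ACAAAG or ACAATG on either strand, 45.5%, beside 45.6% of all REs. Among the 40 lower REs 24 did (60%, 95% exact binomial interval 43.3 to 75.1%, counting error only), among the 16 higher 11 (68.8%), and among the REs not called 39.6%. Over the whole table the lower REs held one in 59.8% and the higher in 44.5%. Of the 13 REs lower at 3 h, 9 held a core in the central 500 bp. Over the whole RE, 11 of these 13 did, as did 28 of the 40 lower and 11 of the 16 higher REs. Of all REs 49.6% did, and of all lower REs 63.9%. The counts are small and the differences were not tested. A pair of cores facing each other with 3 to 5 bp between them, the arrangement bound by a SOX9 dimer, was found in none of the 220 REs, in 0.197% of all REs and in 1.13% of all lower REs. At so small a share of all REs, a count of none among 220 says little. The search took exact letters, where the study scored motif matches, so pairs with other letters would be missed.

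A looser search, added after the values were seen, took the shorter cores ACAAA or ACAAT facing each other with 5 to 7 bp between them. It found 4 member REs, 1.82%, beside 1.37% of all REs and 4.42% of all lower REs. Of these SPRY4-15, whose sequence is printed above, was the only one called at 500 nM. An AP-1 site (TGANTCA) was held by 29 of the 220 (13.2%, beside 15.0% of all REs), a TFAP2 site (GCCNNNGGC) by 74 (33.6%, beside 24.6%), the E-box CAGATG by 73 (33.2%, beside 41.2%), TAATTA by 29 (13.2%, beside 13.1%) and the ETS site CCGGAAG by 11 (5.00%, beside 4.40%), each read on both strands of the central 500 bp. A match is a letter match and not a measured binding site.

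Other loci of the pathway, taken by the same position rule for 48 further genes, gave 899 REs, of which 112 were lower at 500 nM, where 13.9% of all REs were, and 63 higher, where 10.2% were. Both counts are smaller shares of the 899 than these, a difference that was not tested. By role, 26 of 231 REs at other FGF ligands were lower and 19 higher, 11 and 3 of 62 at other receptors and coreceptors, 21 and 14 of 201 at adaptors, 16 and 13 of 175 at the MAP kinase cascade, and 38 and 14 of 230 at other feedback regulators and ETS targets. The decreases that outran SPRY1-4 lay here. SPRED1, a Sprouty relative that blocks RAF activation, had an RE 55 kb upstream with a log2 fold change of -4.46 (SE 0.19, edgeR adjusted p = 4.76e-15), and -3.72 at 3 h. The ETS factor gene ETV4 had one of -3.98 (SE 0.11, nearest DHX8) and the coreceptor gene KL one of -3.88 (SE 0.10). Smaller ones lay at SOS1 (-2.96), GAB1 (-2.19) and FGF1 (-1.85). Further smaller ones lay at FRS3 (-2.26, nearest USP49), PTPN11 (-2.26, nearest RPH3A), BRAF (-2.13, nearest ADCK2) and FGFRL1 (-1.88, nearest RNF212). All of them were lower, as were those at FLRT3 (-1.78), the second SPRED1 RE (-1.74) and DUSP5 (-1.53).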

How the data were processed

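The deposited table holds read counts per RE for 58 ATAC-seq samples, counted by the authors. Per the submitters' notes and the study's methods, reads were trimmed with skewer, aligned to hg38 with Bowtie2 (2.4.1), freed of duplicates, mitochondrial and low-quality alignments with SAMtools (1.10), and MACS2 (2.2.7.1) summits of the samples were merged into 1 set of REs of mostly 501 bp, counted with bedtools. Such a set leaves out elements open in few samples, and counts are cut sites of a culture, not of single cells.

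Here, edgeR (4.0.16, R 4.3.3) was run on the counts as deposited: the quasi-likelihood F test was fitted across the 151457 REs without any filter, with trended dispersions, TMM factors, differentiation batch as covariate as in the study, Benjamini-Hochberg adjustment and a threshold of 0.05. Differences between genotypes were interaction terms with the replicate or batch within genotype as block. CPM are TMM-normalized over all samples. Batch is the differentiation number in the titles; clones of 1 differentiation share it. DESeq2 (1.42.0, the tool of the study), RLE factors, filterByExpr, other blocks and leave-one-out fits were alternatives. ED50 came from Hill curves on batch-corrected CPM with both ends fixed at the means of the highest and lowest concentration, values over 3 SD left out and ED50 searched up to 300.

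The test was tried on simulated counts over 151457 REs. These had the same spread for all REs, no batch or replicate effect, and log2 changes of 1 at well-counted REs. The test recovered 200 of 200 changed REs for the 500 nM comparison, with 16 false calls, and 87 of 200 for the 3 h comparison, with 4. Most called REs of the loci changed by less and real replicates differ more, so these rates do not carry over to them. In the titration, samples of the same clone and differentiation (pairing from the titles) deviated together, with a mean correlation of 0.707 (0.547 to 0.846). Other pairs had -0.116, a value largely set by the first, because deviations were taken from the mean of the 7 replicates of each group.

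REs named in the text are, per locus, the most counted promoter RE, the most accessible RE and the lowest adjusted p in each direction, and over the loci the 3 highest and lowest ED50, plus 13 named after their values were seen (a log2 change of 1 or more, calls at 3 h and later, the largest increase, opposite directions). Pathway genes are named at a log2 change of 1.5 or more, with 1 result not reported here. The members and lists were chosen with earlier results of these data known. In S9CC13_R14, concentration labels of 2 samples disagree with their titles, which were used. The tagged time-course columns of differentiation R5 name clone S9CC47 and the titles S9CC13.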

Additional observations from a re-analysis of the deposited data

Results flagged for a closer look

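In 25 of 294 groups of 7 replicates at the named REs, 1 sample stood apart from the others by Dixon's test at the 95% level, where chance gives about 1 in 20 groups. Of these, 12 were samples of S9CC47_R8, all on the high side. That replicate had 6.51 CPM at FGFR1-3 at 0.5 nM, 26.1, 28.8, 27.2 and 18.5 CPM at FGFR1-4 at 0, 0.5, 1.6 and 5 nM, 13.99 CPM at FGFR1-11 at 500 nM, 21.9, 21.4 and 18.2 CPM at FGFR2-12 at 1.6, 5 and 500 nM, 11.4 and 9.97 CPM at FGF8-11 at 1.6 and 16 nM, and 16.2 CPM at SPRY4-20 at 500 nM. The WT sample of differentiation R8 was also the higher of its pair without dTAGV-1, at 31.7 against 14.9 CPM for FGFR1-4 and 32.4 against 18.8 for SPRY4-20. The changes at these REs were called without S9CC47_R8 as well. In S9CC13_R10, the value was 9.93 CPM at FGF8-8 and 19.4 at FGF18-19 at 500 nM, 9.62 at SPRY4-27 at 0.5 nM, 0.377 at SPRY4-31 at 500 nM, and 27.5 and 26.8 at DUSP6-8 at 0.5 and 16 nM. In S9CC47_R5, it was 2.68 CPM at FGFR2-21 and 75.2 at FGF2-1 at 1.6 nM, 1.22 and 2.17 at SPRY1-5 at 5 and 500 nM, and 1.20 at DUSP6-15 at 500 nM. The remaining samples were S9CC47_R6 at FGFR2-9 at 5 nM, with 29.5 CPM, and S9CC13_R6 at SPRY1-11 at 0.5 nM, with 33.1 CPM.

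The effect of 500 nM dTAGV-1 differed between tagged and WT cells at 19 of the named REs after 48 h and at 8 after 3 h, by the interaction term in edgeR (values are the tagged log2 change minus the WT log2 change). After 48 h the difference was -2.23 at SPRY1-4, -2.17 at SPRY4-31, -1.49 at SPRY4-15, -1.27 at SPRY1-3, -1.13 at FGFR2-22, -1.12 at SPRY1-15, -1.06 at FGFR1-3, -1.05 at SPRY1-14, -1.01 at FGFR1-4, -0.87 at FGFR3-18, -0.85 at SPRY2-3, -0.78 at SPRY4-20, -0.74 at SPRY4-8, -0.57 at FGF2-2, -0.52 at FGFR3-26 and -0.41 at DUSP6-3. It was positive at DUSP6-16 (0.85), DUSP6-12 (0.83) and FGFR1-2 (0.68). After 3 h it was -2.32 at SPRY4-15 and SPRY1-4 alike, -1.88 at SPRY4-31, -1.48 at SPRY1-14, -1.20 at FGFR1-3, -1.12 at SPRY2-3, -0.97 at SPRY1-15 and -0.47 at DUSP6-8. At 7 of these REs, all but DUSP6-8, it was past the threshold at both times.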

How the results depend on the processing

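At 500 nM, 56 REs were called. Whichever 1 replicate was left out, 41 of the 56 stayed called, 34 of the 40 lower and 7 of the 16 higher. DESeq2 called 54, RLE factors gave 56, filterByExpr 56 and the replicate block in place of the batch 68. Of these, 53, 55, 56 and 56 were among the 56 of the main fit. Leaving out the batch as well gave 25 at 500 nM, 9 at 16 nM, 2 at 5 nM, 0 at 3 h, 1 at 24 h and 2 in each of the 3 comparisons between genotypes, and 74 in place of 175 at the other pathway loci. Start sites within 50 kb gave 36 at 500 nM, out of the 133 REs that this window kept. The replicate block gave 62 at 16 nM, 20 at 5 nM and 1 at 1.6 nM, and changed no other count by over 1.5 times. DESeq2 gave 12 at 3 h and 25 at 24 h. RLE factors gave 1 between tagged and WT cells without dTAGV-1. ED50 on log2 CPM had a median of 15.4.

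Without 1 replicate, counts ran from 47 to 63 at 500 nM, 28 to 52 at 16 nM, 6 to 26 at 5 nM, 0 to 1 at 0.5 nM, 6 to 9 at 3 h, 8 to 22 at 24 h, 7 to 14 for the genotype difference at 24 h, 12 to 29 at 48 h and 6 to 13 at 3 h, 0 to 2 between genotypes without dTAGV-1, and 147 to 198 at other pathway loci, and the median ED50 from 16.5 to 20.4. Among the named REs, calls at FGFR1-2, FGFR1-28, FGF18-19, SPRY1-12 and DUSP6-15 were lost without some replicate, that at FGF18-19 also by DESeq2. No called RE among those named changed direction, and FGFR2-9, FGF8-8, SPRY1-8, SPRY2-7 and SPRY4-19, none of them called and all near 0, changed sign without some replicate. The causes were not tested.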
